A study of Homo sapiens with 6 samples.

Results

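The 10 long noncoding RNAs described here, known for high or widely studied expression in human cells, were followed across 6 RNA libraries of kidney cancer cells: MALAT1, NEAT1, NORAD, TUG1, GAS5, SNHG1, PVT1, H19, MEG3 and MIAT. A member was taken wherever the symbol of a row in the count table equalled its name. This gave 8 rows out of 32357 genes, and NORAD was added as the row LINC00657, the older symbol that RefSeq lists for the same gene. MEG3 has no row under its name and is not analysed here, so that 9 of the 10 RNAs have values. The libraries came from 786-O and A-498, established lines of human clear cell renal cell carcinoma that both lack a working VHL tumour suppressor. Cells of each line were transduced with a short hairpin construct from packaged virus (called retroviral in the labels) and selected with puromycin, and carried a non-targeting control hairpin, hairpin 1 against ZNF395 or hairpin 3 against ZNF395, a zinc finger DNA-binding protein. There was 1 library for each line and construct, so the controls share the virus and the selection with the knockdowns, and the other line is the only replicate of a hairpin. The labels do not say that libraries came from separate cultures or transductions, so p-values measure the spread between these 6 libraries only.

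Long noncoding RNAs are transcripts that act without being translated. MALAT1 gathers in nuclear speckles, where splicing factors are stored, and NEAT1 is the scaffold of paraspeckles, nuclear bodies that hold RNA-binding proteins and retained RNA. NORAD is a cytoplasmic RNA that binds PUM2, a repressor of messenger RNA from the Pumilio family. GAS5 and SNHG1 are spliced carriers of small nucleolar RNAs (snoRNAs), whose exons are destroyed by nonsense-mediated decay when the RNA is engaged by ribosomes. PVT1 lies beside MYC, H19 and MEG3 are imprinted RNAs of the growing embryo, TUG1 is a broadly expressed RNA transcribed next to MORC2, and MIAT is a nuclear RNA of neurons and other cells.

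The libraries held 77534125 to 99147218 counts, and the 9 RNAs together took 0.107 to 0.169% of them. Levels are given as CPM, a gene's counts per 1000000 counts of its library, after TMM scaling, which evens out differences in composition between libraries; 1 CPM stands for 75 to 99.7 counts. ZNF395 was at 67.9 and 96.3 CPM in the controls and at 13.5 to 24.7 CPM in the 4 knockdown libraries. The renal markers PAX8 (157 to 256 CPM) and PAX2 (17.7 to 26.6 CPM) were present in every library. By contrast CA9 and NDUFA4L2, usual markers of clear cell carcinoma, were at 0 to 1.68 and 0.0749 to 1.16 CPM. The immune marker PTPRC stayed at or below 0.0903 CPM and the endothelial marker VWF at or below 0.0511 CPM. Of the fibroblast markers, COL1A2 and DCN stayed at or below 0.0499 CPM. COL1A1 was at 1.51 to 40.8, PDGFRB at 0.474 to 2.29 and LUM at 0 to 4.2 CPM. Among markers linked to the HEK293 cell line, NEFL (200 to 398 CPM) and PEG10 (255 to 721 CPM) were high in every library. NEFM was at 0.107 to 45.2 CPM, and SOX2 and LIN28B stayed at or below 0.761 CPM. Genes of the mitochondrial genome took 5.13 to 8.21% of counts, more in each A-498 library than in any 786-O library. No source used here says whether reads were counted by strand. In GENCODE release 29 the genes GAS5, MALAT1, TUG1, MIAT, H19 and PVT1 overlap a gene on the opposite strand, so their values may include antisense reads. NEAT1, SNHG1 and NORAD overlap none on that strand. The same caution holds for the genes named below whose symbol ends in AS1.

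The sequences that these RNAs are known for help to place them. In the reference transcript NORAD-201 of 5339 bases (GENCODE release 29, GRCh38, chr20:36045622-36050960, minus strand, 1 exon), the Pumilio motif TGTANATA occurs 15 times on the transcript strand, or 2.81 times per kb. Of 27852 genes whose longest transcript has at least 1000 bases, 25.5% hold the motif at least 1 time and 0.0215% hold it at least as often as NORAD. It occurs 6 times in NEAT1 (22743 bases), 2 times in TUG1 (7469 bases), 1 time in SNHG1 (2768 bases) and not at all in the longest transcripts of MALAT1, GAS5, PVT1, H19 and MIAT. In NORAD 10 of the 15 matches read TGTATATA, and 6 of these follow the bases CTG. Those 6 are shown because they display the repeated unit of the RNA whose level changed most clearly, with the motif in capitals and the name giving the motif's first base in the transcript:
NORAD 761: aggcctgTGTATATAatatgaa
NORAD 1140: actactgTGTATATAgttgaca
NORAD 1442: ttatctgTGTATATAgtgtaca
NORAD 2972: cctactgTGTATATAgcggaca
NORAD 3275: tgtgctgTGTATATAgtgtata
NORAD 3593: gctactgTGTATATAatggaaa

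MALAT1 and the long form of NEAT1 share an unusual end in place of a poly(A) tail. Both are cut by RNase P in front of a small tRNA-like RNA, and a U-rich stretch then folds over the A-rich end into a triple helix. The 60 bases up to the end of that tract are shown, with the run of A and the GCAAAA after it in capitals, because these RNAs carry them where other long RNAs have a tail, which total RNA libraries do not need:
MALAT1 8296 to 8355: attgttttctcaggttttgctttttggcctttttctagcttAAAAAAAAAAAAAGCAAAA
NEAT1 22684 to 22743: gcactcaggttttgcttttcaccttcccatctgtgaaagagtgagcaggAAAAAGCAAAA
In the reference, 353 further bases follow in MALAT1 and 0 in NEAT1. A table of counts per gene holds no information on where along the RNA the reads lie, so the short and the long form of NEAT1 cannot be told apart.

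Set per kb of exon (union of the exons in GENCODE release 29), the mean level over the 6 libraries was highest for NORAD at 87.7 CPM per kb. GAS5 followed at 45.7, SNHG1 at 25.9, TUG1 at 19.3 and MALAT1 at 17.1 CPM per kb. PVT1 at 7.12 and NEAT1 at 7.05 CPM per kb stood side by side, and H19 (0.275 CPM per kb) and MIAT (0.0619 CPM per kb) were far lower. Single libraries ranged from 58.3 to 132 CPM per kb for NORAD, 40.8 to 57 for GAS5 and 14.3 to 49 for SNHG1. The ranges were 15.7 to 22 for TUG1 and 12.2 to 24.9 for MALAT1. GAS5 thus lay above TUG1 and MALAT1. The range of SNHG1 overlapped that of GAS5, though it lay below GAS5 within each library. The order of SNHG1, TUG1 and MALAT1 is not separated. The order depends on the length chosen: per kb of the longest single transcript, GAS5 stood at 97.7 CPM per kb, above NORAD at 87.7, and PVT1 at 23, above MALAT1 at 17.4. In CPM, 7 of the 9 RNAs were at 19.3 or more in every library, and H19 and MIAT were at 1.88 or less.

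**Figure D1:**
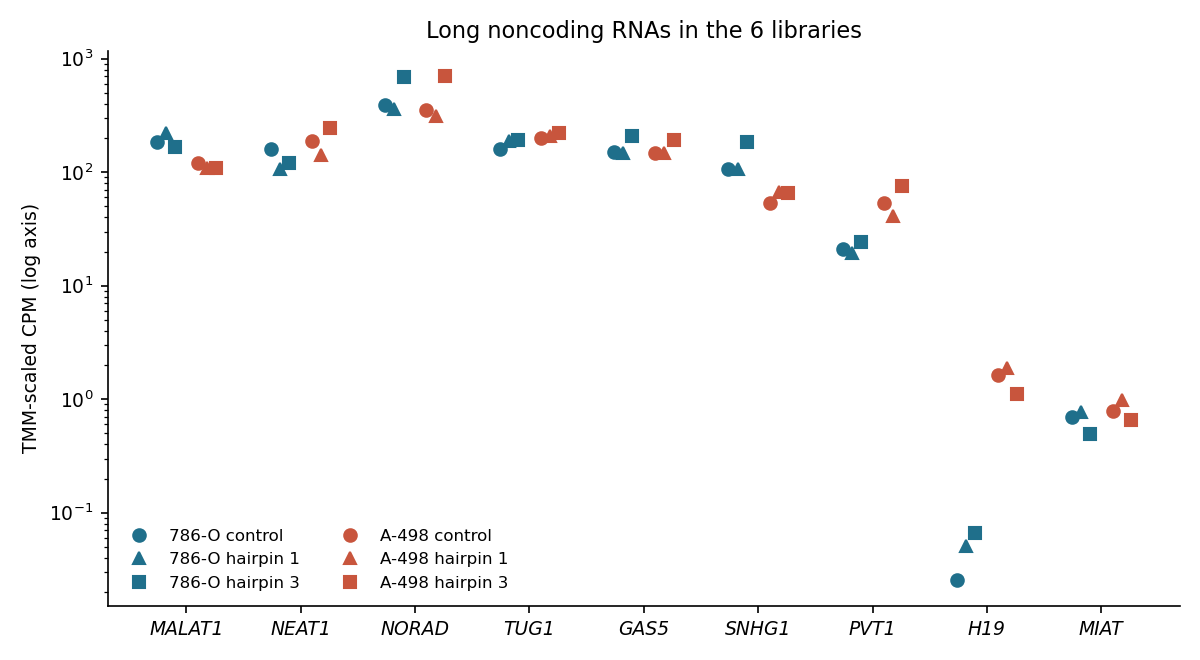
TMM-scaled CPM (log axis) of the 9 long noncoding RNAs in each of the 6 libraries, with 1 point per library, colour for the line and symbol for the construct. NORAD with hairpin 3 stands above its control and hairpin 1 in both lines, and H19 is separated by line.

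Of the RNAs of the nuclear bodies, MALAT1 (chr11:65497688-65506516, plus strand, GRCh38) was at 186 CPM in 786-O control cells, 220 CPM under hairpin 1 and 166 CPM under hairpin 3. A-498 cells had 120, 108 and 108 CPM in the same order, which is used throughout. All 3 A-498 libraries lay below all 3 786-O libraries, while hairpin 1 lay above the control in 786-O and below it in A-498. Neither hairpin gave a call: over both lines hairpin 1 gave a log2 fold change of 0.05 (adjusted p = 0.939) and hairpin 3 gave -0.16 (adjusted p = 0.544), each with an SE of 0.145. The 95% interval of the hairpin 3 change ran from -0.5 to 0.19 on the log2 scale.

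NEAT1 (chr11:65422774-65445540, plus strand, 52.1 kb upstream of MALAT1) was at 159 CPM in 786-O control cells, 106 under hairpin 1 and 121 under hairpin 3. In A-498 it was at 189, 143 and 245 CPM. Hairpin 1 was the lowest library in each line, at 0.668 times the control in 786-O (95% counting interval 0.65 to 0.687) and 0.759 times in A-498 (0.742 to 0.777). Hairpin 3 was below the control in 786-O, at 0.76 times, and above it in A-498, at 1.3 times. The counting intervals cover sampling of reads only. Over both lines NEAT1 stood at a log2 fold change of -0.5 with hairpin 1 (SE 0.192), which passed an unadjusted p of 0.05 but not the adjustment over all genes (adjusted p = 0.433), and at 0 with hairpin 3 (SE 0.19, adjusted p = 0.998). Between the hairpins the difference was 0.5 (SE 0.193, adjusted p = 0.153 by edgeR). Without 786-O hairpin 3 it was 0.84, but hairpin 3 then rests on the A-498 library alone, at 1.3 times its control against 0.76 times in 786-O.

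Of the proteins of these bodies, 0 of 16 in paraspeckles and 0 of 10 in nuclear speckles were called with either hairpin, where 0.149% of all genes were called with hairpin 1 and 6.71% with hairpin 3 (514 up and 837 down of 20144), so for lists of this size 0 is near the background. The median log2 fold change with hairpin 3 was -0.005 for the first list and -0.013 for the second, against -0.01 over all genes. The 8 tested neighbours of MALAT1 and NEAT1 on chromosome 11 were not called with either hairpin, and the lowest unadjusted p with hairpin 3 was that of LTBP3 (log2 fold change -0.81, adjusted p = 0.0649). Among 11 long transcripts known to stay in the nucleus, the messenger RNA of MLXIPL, a glucose-responsive transcription factor, fell with hairpin 3 by 2.05 on the log2 scale (SE 0.366, adjusted p = 0.0276). Its levels were 0.139, 0.0766 and 0.0267 CPM in 786-O and 1.67, 1.56 and 0.429 CPM in A-498, so the change rests on few reads, and the call was lost without either control, without 786-O hairpin 1 or without A-498 hairpin 3.

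NORAD gave the clearest change. Its level was 390 CPM in 786-O control cells, 362 under hairpin 1 and 685 under hairpin 3, and 356, 311 and 705 CPM in A-498, from 30815, 28390 and 51417 counts in 786-O and 35483, 24939 and 68972 counts in A-498. Both hairpin 3 libraries lay above all 4 others, and both hairpin 1 libraries lay slightly below their own control. Hairpin 3 stood at 1.76 times the control in 786-O (counting interval 1.73 to 1.78) and 1.98 times in A-498 (1.95 to 2.01), and hairpin 1 at 0.93 and 0.875 times. NORAD rose with hairpin 3, the log2 fold change being 0.90 (SE 0.13, 95% interval 0.59 to 1.21, adjusted p = 0.0173 by edgeR's quasi-likelihood test). It was the only 1 of the 9 RNAs called in that comparison, in which 6.71% of all 20144 genes tested were called in either direction. Without the 786-O control the change was 0.94 with an adjusted p of 0.108, and without the A-498 control 0.85 with an adjusted p of 0.154, so the call was lost without either control. Over all other alternatives the adjusted p lay between 3.29e-07 and 0.0318. With hairpin 1 NORAD stood at -0.15 (SE 0.129, adjusted p = 0.764).

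Hairpin 3 differed from hairpin 1 directly as well. NORAD was higher with hairpin 3 than with hairpin 1 by 1.05 on the log2 scale (SE 0.131, 95% interval 0.74 to 1.36, adjusted p = 0.0105), and was again the 1 RNA called, where 9.48% of all genes were called. Without 786-O hairpin 1 this difference was 1.14 with an adjusted p of 0.0551. Comparisons of hairpin 1 and of hairpin 3 with the controls use the same 2 control libraries, and the controls also enter the error of the direct difference.

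Of the proteins known to bind NORAD, PUM2, RBMX and KHDRBS1 were not called with hairpin 3. PUM2 was at 146, 144 and 182 CPM in 786-O and 178, 189 and 205 CPM in A-498. KHDRBS1, an RNA-binding protein also called SAM68, stood at -0.65 on the log2 scale (SE 0.196, adjusted p = 0.0973), with 259, 264 and 204 CPM in 786-O and 184, 205 and 93.1 CPM in A-498. Among 11026 other genes averaging at least 5 CPM, those whose line-centred log2 CPM followed NORAD most closely over the 6 libraries were THUMPD2 (Pearson r 0.9994), TMEM8A (0.9993) and TBC1D20 (0.9984). THUMPD2 was at 12.2, 11.7 and 16.1 CPM in 786-O and 21.8, 20.6 and 30.1 CPM in A-498. These values of r serve only to name the nearest patterns. For MALAT1 the nearest were KLHL13 (0.9867), PPP2R3A (0.9864) and NBPF15 (0.9861), and for NEAT1 USP6NL (0.9995), CAMK2N1 (0.9954) and S100A2 (0.9906).

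The start of the NORAD gene is shown because NORAD was the member that moved with a hairpin against a DNA-binding protein. The RefSeq window (GRCh38.p14, chr20:36050911-36051210, minus strand) spans 250 bases before to 50 bases after the annotated start, with matches in capitals:
NORAD: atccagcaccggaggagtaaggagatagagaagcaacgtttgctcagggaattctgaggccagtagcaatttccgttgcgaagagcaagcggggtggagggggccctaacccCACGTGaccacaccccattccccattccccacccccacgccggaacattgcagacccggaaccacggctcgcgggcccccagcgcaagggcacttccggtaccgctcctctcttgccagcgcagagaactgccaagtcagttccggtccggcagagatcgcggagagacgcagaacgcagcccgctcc
The sequences searched for, on both strands, were GCCGGCG, reported for ZNF395, ACGTG, the core of hypoxia-responsive elements, and CACGTG, the E-box bound by MYC and related factors, which contains ACGTG on each strand. The last was added after the window had been read. GCCGGCG was in none of the 11 windows of the 8 members that RefSeq covers (MEG3 included), and is in 11% of all 35116 windows. CACGTG was in the windows of NORAD and TUG1, and is in 7.26% of all windows, and ACGTG was in the same 2 windows and is in 21.4%. A match in these letters is not evidence of binding, and a window without one says nothing about the factor.

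**Figure D2:**
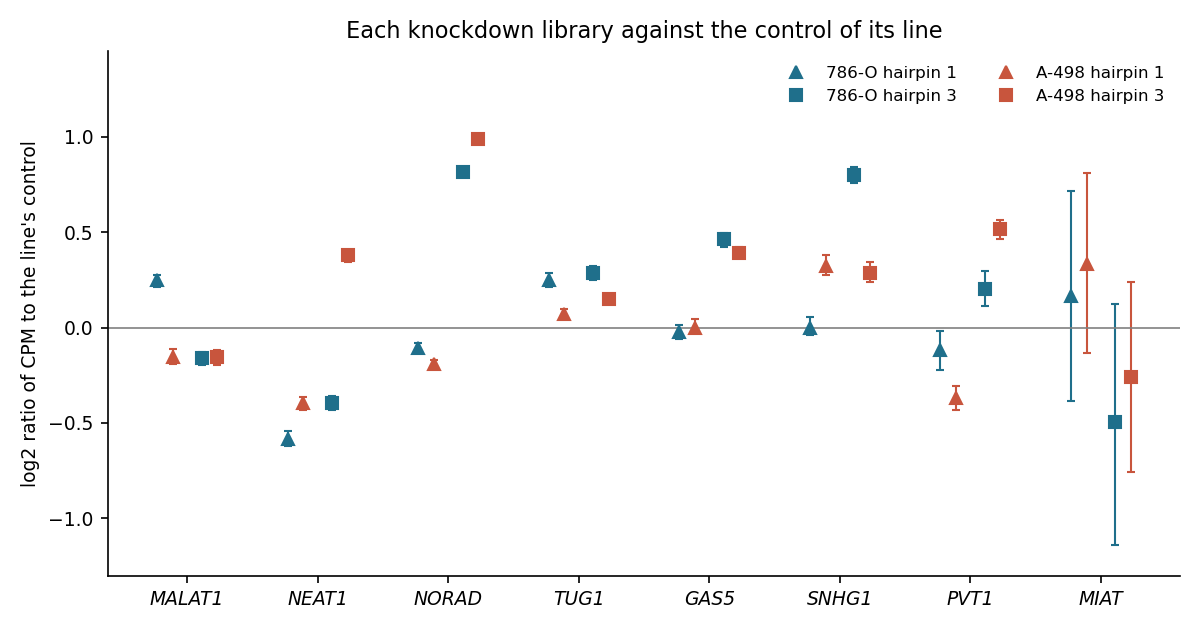
Log2 ratio of CPM in each of the 4 knockdown libraries to the control of the same line, with 1 point per library and 95% counting intervals as bars (H19 is left out because 786-O had 2 to 5 counts). Both NORAD hairpin 3 points lie above all other NORAD points, while NEAT1 with hairpin 3 lies on opposite sides of 0 in the 2 lines.

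Among the snoRNA carriers, GAS5 (chr1:173863900-173868882, minus strand, GRCh38) was at 150 CPM in 786-O control cells, 148 under hairpin 1 and 207 under hairpin 3. In A-498 it was at 148, 148 and 194 CPM. The 4 libraries without hairpin 3 were nearly equal, and both hairpin 3 libraries lay above them, at 1.38 times the control in 786-O (counting interval 1.34 to 1.41) and 1.31 times in A-498 (1.29 to 1.34). The fitted log2 fold change with hairpin 3 was 0.43 (SE 0.117, 95% interval 0.15 to 0.7), which missed the threshold (adjusted p = 0.0767). With DESeq2's Wald test the adjusted p was 0.0182. Against hairpin 1 the difference was 0.44 (SE 0.117, adjusted p = 0.0638), with an adjusted p of 0.0493 by limma-voom and 0.0135 by DESeq2. With hairpin 1 GAS5 stood at -0.01 (SE 0.116, adjusted p = 0.99).

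SNHG1 (chr11:62851988-62855914, minus strand) was at 106 CPM in 786-O control cells, 106 under hairpin 1 and 184 under hairpin 3. In A-498 it was at 53.7, 67.3 and 65.7 CPM. Hairpin 3 stood out in 786-O, at 1.74 times the control, whereas in A-498 both hairpins lay above the control by like amounts, at 1.25 times for hairpin 1 and 1.22 times for hairpin 3. Over both lines the log2 fold change with hairpin 3 was 0.56 (SE 0.196, adjusted p = 0.133). It passed the threshold without A-498 hairpin 3, at 0.86 (adjusted p = 0.0169), and without the filter on low counts (adjusted p = 0.0461), but was 0.23 without 786-O hairpin 3 (adjusted p = 0.393). Against hairpin 1 the difference was 0.38 (SE 0.196, adjusted p = 0.256), and 0.7 without A-498 hairpin 3 (adjusted p = 0.0365), 0.07 without 786-O hairpin 3 (adjusted p = 0.816) and 0.1 without 786-O hairpin 1 (adjusted p = 0.818).

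Messenger RNAs and host RNAs whose translation follows growth signals begin with C followed by a run of C and T, the terminal oligopyrimidine tract. The first 30 bases of 6 snoRNA hosts are shown, from the GENCODE transcript of each with the longest opening run of C and T (in capitals), to set GAS5 and SNHG1 beside hosts called with hairpin 3 against the controls or against hairpin 1 (C17orf76-AS1 is LRRC75A-AS1 in GENCODE):
GAS5: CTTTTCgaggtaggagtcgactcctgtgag
SNHG1: TTTTTCTactgctcgtggatttacgcgcac
SNHG5: CTTTTacgtcggccttcgcgagcgtctggg
C17orf76-AS1: CTCCTTTTgtgaggattgggatattccgac
SNHG16: TTCTTTTCgaggtcggccgcgtggctggaa
DANCR: agagtcttcccgggattggctgcgggcctc
By the same choice of transcript, 16 of 22 hosts (72.7%) and 9841 of 57133 annotated genes (17.2%) open with a run of at least 4. A run counted here may start with T, as in SNHG1 and SNHG16, so these are not counts of such tracts. The run is the longest over all transcripts of a gene, so genes with many transcripts have more chances of one. GAS5 has 29 transcripts and SNHG1 has 25. The genes were not matched for this, so the shares are not like for like. DANCR, with no opening run in the reference, had the largest change of the hosts with hairpin 3, and SNHG5 and C17orf76-AS1, the others called against the controls, open with runs of 5 and 8. SNHG12, called against hairpin 1 but not against the controls, is not shown and opens with a run of 11. The part of the run in the calls was not tested.

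Of 22 snoRNA hosts tested, GAS5 and SNHG1 included, 3 rose with hairpin 3 and none fell, where 514 of 20144 genes rose and 837 fell (6.71% called). Of the 22, 19 had a positive log2 fold change, as had 49.1% of all genes, and the median was 0.316 against -0.01 over all genes. DANCR, a noncoding host at 29.1, 26.5 and 57.8 CPM in 786-O and 9.26, 6.88 and 17.9 CPM in A-498, rose by 0.97 (SE 0.142, adjusted p = 0.0173). SNHG5, at 174, 168 and 238 CPM and at 9.83, 10.3 and 16.4 CPM, rose by 0.59 (SE 0.128, adjusted p = 0.0431). C17orf76-AS1, at 175, 185 and 249 CPM and at 201, 221 and 300 CPM, rose by 0.54 (SE 0.117, adjusted p = 0.0436). In each of the 3 the hairpin 3 library was the highest of its line. The number of hosts called was 0 without the 786-O control, 0 without the A-498 control and 1 without 786-O hairpin 1, and 7 with DESeq2 or without the filter on low counts. The SNHG5 and C17orf76-AS1 calls were also lost without A-498 hairpin 3, and that of SNHG5 under library totals. Leaving out 786-O hairpin 3 or A-498 hairpin 1 gave 5 and 6. With hairpin 1 none of the 22 was called and the median was -0.044.

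Between the hairpins, 4 of the 22 hosts were called higher with hairpin 3 and none lower, where 823 of 20144 genes were higher and 9.48% were called. They were DANCR by 1.25, SNHG16 by 0.64, SNHG5 by 0.59 and SNHG12 by 0.52 in log2 units (adjusted p = 0.00914, 0.0357, 0.0383 and 0.0424 by edgeR). Leaving out either control, 786-O hairpin 1 or A-498 hairpin 1 left 1 host called. None of 14 factors of nonsense-mediated decay was called with hairpin 3, where 6.71% of all genes were, so for a list of this size 0 is near the background. Their median was 0.082 against -0.01 over all genes. Of the snoRNAs inside GAS5, 3 of 10 have rows and only SNORD78 had enough reads to be tested, at 1.66, 1.4 and 1.8 CPM in 786-O and 1.4, 1.49 and 1.82 CPM in A-498 (log2 fold change 0.24 with hairpin 3, SE 0.236, adjusted p = 0.565). Mature snoRNAs are too short for libraries of this kind, so such rows say little about them.

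**Figure D3:**
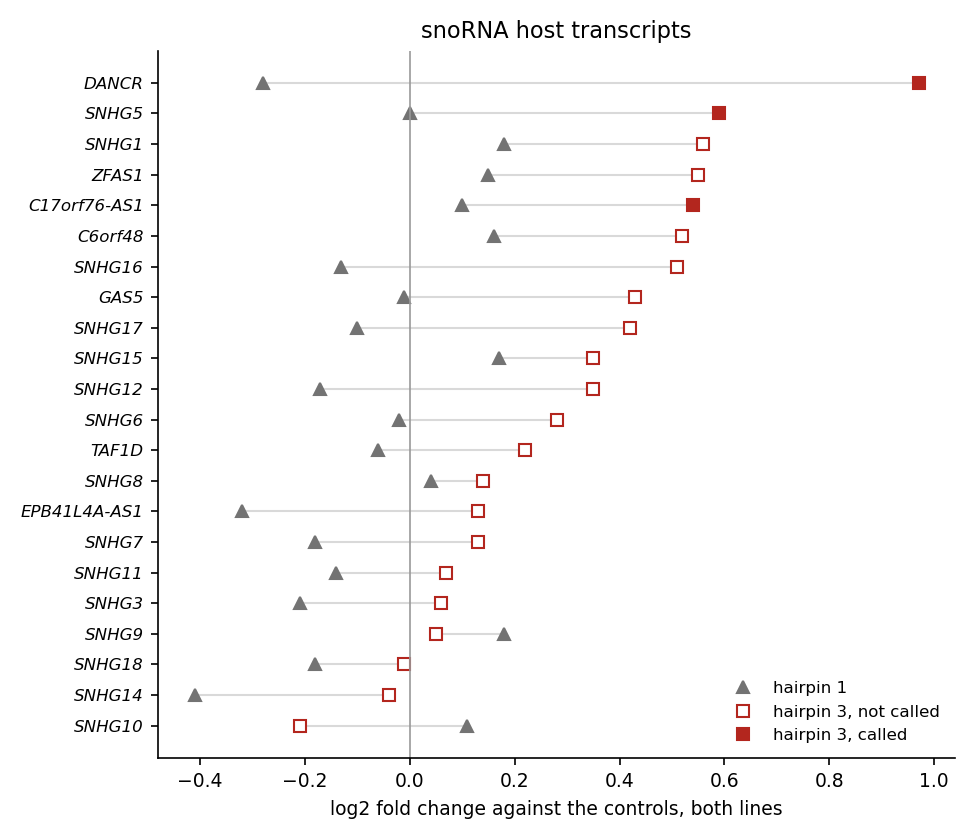
Log2 fold change against the controls over both lines for 22 snoRNA host transcripts, with triangles for hairpin 1 and squares for hairpin 3, filled where the adjusted p is under 0.05. DANCR, SNHG5 and C17orf76-AS1 are filled, and 19 squares lie to the right of 0.

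SNHG1 shares its start region with SLC3A2, the heavy chain of amino acid exchangers, which runs the opposite way from 188 bases away in GENCODE release 29. SLC3A2 was at 356, 306 and 704 CPM in 786-O and 391, 374 and 522 CPM in A-498. It was higher with hairpin 3 than with hairpin 1 by 0.85 on the log2 scale (SE 0.19, adjusted p = 0.041), a call lost without 786-O hairpin 1, and against the controls it stood at 0.71 (adjusted p = 0.0714). In both lines hairpin 3 gave the highest SLC3A2 level, as it did for SNHG1 in 786-O but not in A-498. The window at the SNHG1 start (RefSeq, GRCh38.p14, chr11:62855836-62856135, minus strand) is shown because it covers the gap between the 2 genes, and it holds none of the 3 searched sequences:
SNHG1: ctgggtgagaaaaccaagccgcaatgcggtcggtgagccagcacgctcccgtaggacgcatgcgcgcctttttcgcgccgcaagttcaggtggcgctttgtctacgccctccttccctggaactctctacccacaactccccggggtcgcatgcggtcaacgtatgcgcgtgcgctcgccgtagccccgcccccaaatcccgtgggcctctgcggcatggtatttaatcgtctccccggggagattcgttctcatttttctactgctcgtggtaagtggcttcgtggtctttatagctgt
ZBTB37, which overlaps GAS5 on the other strand, was at 21.6, 30.1 and 20.2 CPM in 786-O and 20, 30.1 and 19.9 CPM in A-498. It was lower with hairpin 3 than with hairpin 1 (log2 difference -0.59, SE 0.13, adjusted p = 0.0403), and hairpin 1 was the high library in both lines. That call was lost without either control or either hairpin 1 library.

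TUG1 (chr22:30969245-30979395, plus strand) varied least of the well-expressed members together with GAS5, by 1.4 times between its lowest and highest library. It was at 159 CPM in 786-O control cells, 190 under hairpin 1 and 194 under hairpin 3, and at 201, 210 and 223 CPM in A-498. All 4 knockdown libraries lay above the control of their line, by 4.84 to 21.9%. Hairpin 1 gave a fitted change of 0.16 (adjusted p = 0.721) and hairpin 3 of 0.22 (adjusted p = 0.314), each with an SE of 0.121. MORC2, which starts 0.947 kb away on the opposite strand, was at 39.2, 44.2 and 49 CPM in 786-O and 40.4, 50.9 and 44.6 CPM in A-498 and was not called.

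PVT1, on chromosome 8 and 53.1 kb beyond MYC on the same strand, was at 20.9 CPM in 786-O control cells, 19.3 under hairpin 1 and 24.1 under hairpin 3. In A-498 it was at 53.2, 41.3 and 76 CPM. Hairpin 1 lay below the control and hairpin 3 above it in both lines, at 0.921 and 1.15 times in 786-O and 0.775 and 1.43 times in A-498. Over both lines PVT1 stood at 0.37 with hairpin 3 (SE 0.158, adjusted p = 0.201) and at -0.24 with hairpin 1 (SE 0.159, adjusted p = 0.675), and the difference between the hairpins was 0.61 (SE 0.159, 95% interval 0.23 to 0.99, adjusted p = 0.0615). That difference passed the threshold with limma-voom (adjusted p = 0.0483) and with DESeq2 (adjusted p = 0.0204), and without 786-O hairpin 3 it was 0.84 (adjusted p = 0.00904). Without that library the change against the controls was 0.6 (adjusted p = 0.0394), and without A-498 hairpin 3 it was 0.13 (adjusted p = 0.654) against the controls and 0.37 (adjusted p = 0.168) against hairpin 1.

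MYC, the transcription factor next to PVT1, was at 74.7, 77.1 and 117 CPM in 786-O and 98.3, 115 and 140 CPM in A-498, highest with hairpin 3 in both lines. It rose with hairpin 3 by 0.58 on the log2 scale (SE 0.129, adjusted p = 0.046). The call was lost without either control, without 786-O hairpin 1 or without 786-O hairpin 3. It was the only 1 of 6 tested genes of that neighbourhood, PVT1 included, called against the controls, where 6.71% of all genes were called. Between the hairpins the retrogene POU5F1B was higher with hairpin 3 by 2.01 (SE 0.486, adjusted p = 0.0494), at 0.0126, 0 and 0.0133 CPM in 786-O and 0.411, 0.187 and 0.746 CPM in A-498, and this was lost under 7 of 11 alternatives. PCAT1, another noncoding RNA of that region, was higher by 2.07 (SE 0.462, adjusted p = 0.0406), at no more than 0.797 CPM in any library, and was lost under 6 of 11.

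H19 (chr11:1995176-2001470, minus strand, GRCh38) was nearly silent in 786-O, with 2 control counts, 4 counts under hairpin 1 and 5 under hairpin 3. A-498 had 164, 151 and 109 counts, or 1.64, 1.88 and 1.11 CPM. Hairpin 3 was the lowest A-498 library, at 0.677 times the control (counting interval 0.526 to 0.868), and hairpin 1 was at 1.15 times (0.913 to 1.44). In 786-O the intervals of the ratios were too wide to read, at 0.289 to 22.3 for hairpin 1 and 0.431 to 27.7 for hairpin 3. No hairpin comparison called H19 (-0.31 with hairpin 3, SE 0.408, adjusted p = 0.685). Among 10 tested genes of the wider imprinted region around H19 and IGF2, CDKN1C and KCNQ1 fell with hairpin 3 and none rose. Over all genes, 837 of 20144 fell and 6.71% were called. KCNQ1 lies 443 kb and CDKN1C 882 kb from H19, further than IGF2 at 128 kb. CDKN1C, an inhibitor of cell cycle kinases that is expressed from the maternal allele, fell by 1.81 on the log2 scale (SE 0.285, adjusted p = 0.0206), with 0.556, 0.281 and 0.107 CPM in 786-O and 5.76, 3.6 and 1.93 CPM in A-498, a call lost without either control. KCNQ1, a potassium channel, had 0, 0.0128 and 0 CPM in 786-O, so its fall of 2.25 (SE 0.464, adjusted p = 0.0379) rests on A-498 at 2.26, 1.12 and 0.46 CPM. The KCNQ1 call was lost without either control, 786-O hairpin 1 or A-498 hairpin 3 and with limma-voom, and the sign turned (1.58) without the A-498 control. IGF2 itself was at 0.0128 to 0.201 CPM.

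Of the MEG3 and DLK1 imprinted domain on chromosome 14, 1 of 9 listed genes has a row, the neuronal scaffold gene BEGAIN. It was at 0, 0 and 0.0267 CPM in 786-O and 1.32, 1.24 and 1.08 CPM in A-498.

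MIAT (chr22:26646428-26676475, plus strand) was at 0.696, 0.779 and 0.493 CPM in 786-O and 0.782, 0.986 and 0.654 CPM in A-498. Hairpin 1 was the highest and hairpin 3 the lowest library in each line. The counting intervals of all 4 ratios to the control included 1, and the difference between hairpin 3 and hairpin 1 was -0.62 (SE 0.27, adjusted p = 0.192). Across the 9 RNAs hairpin 1 thus gave 0 calls, where 0.149% of all genes were called. NEAT1 was the 1 RNA under an unadjusted p of 0.05 by edgeR, and DESeq2 and limma-voom also called 0.

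**Figure D4:**
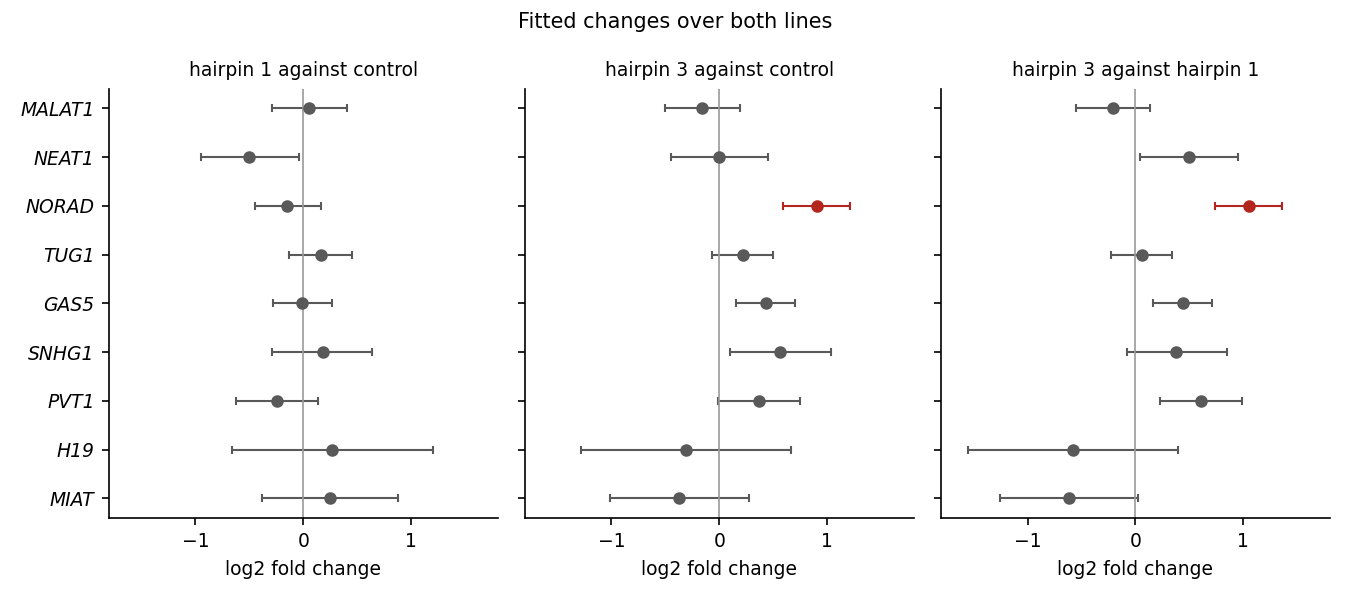
Log2 fold change with its 95% interval over both lines for the 9 RNAs, in panels for hairpin 1 against control, hairpin 3 against control and hairpin 3 against hairpin 1; red marks an adjusted p under 0.05. NORAD is red at 0.90 and 1.05 in the hairpin 3 panels, and no RNA is red for hairpin 1.

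With both hairpins pooled as ZNF395 knockdown, edgeR called 0 of the 9 RNAs, where 0% of all genes were called. None of the 9 had an unadjusted p under 0.05 (1013 of all genes did), and DESeq2 and limma-voom called 0 of the 9 too. The fitted log2 fold changes ran from -0.23 for NEAT1 (SE 0.248) to 0.47 for NORAD (SE 0.381, 95% interval -0.44 to 1.38), where the spread between the hairpins enters the error. In the authors' deposited table, which sets control over knockdown, the log2 fold change was -0.31 for NORAD, -0.3 for SNHG1 and 0.18 for NEAT1, and the adjusted p was 0.99976 for each of the 9. The knockdown effect did not differ between the lines for any of the 9 by edgeR (0 called, and 0% of all genes called), with 0 of the 9 under an unadjusted p of 0.05 and 0 called by DESeq2 or limma-voom. The intervals were wide: for NORAD the difference between the lines ran from -1.91 to 2.08 on the log2 scale.

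The lines themselves differed in 4 of the 9 RNAs, where 47.2% of all genes were called between them. MALAT1 was lower in A-498, at 112 CPM ± 7.05 (SD, n = 3 libraries) against 191 CPM ± 27.4 in 786-O, a log2 difference of -0.77 (SE 0.157, adjusted p = 0.00783). SNHG1 was lower too, at 62.3 CPM ± 7.44 against 132 CPM ± 44.9 (log2 difference -1.07, SE 0.218, adjusted p = 0.00757). PVT1 was higher in A-498, at 56.8 CPM ± 17.7 against 21.5 CPM ± 2.48 (1.4, SE 0.248, adjusted p = 0.00445). Each of the 3 held its direction in all 3 pairs of libraries with the same construct, with A-498 at 0.491 to 0.65 times 786-O for MALAT1, 0.358 to 0.635 times for SNHG1 and 2.14 to 3.15 times for PVT1.

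H19 was higher in A-498 by 4.99 on the log2 scale (SE 0.448, adjusted p = 0.000321). The ratio of A-498 to 786-O was 65 between the controls (counting interval 17.7 to 541), 36.9 with hairpin 1 (14.1 to 137) and 16.7 with hairpin 3 (6.95 to 52.5). H19 passed the filter on low counts only through A-498, so a difference between the lines had to follow. The same applies to MRPL23-AS1, IGF2 and KCNQ1 of the wider imprinted region, and to POU5F1B, CCAT1 and CASC8 around PVT1. It does not apply to CDKN1C, which at 0.556 CPM in the 786-O control and 0.281 CPM with hairpin 1 had enough reads there. Other genes of the wider imprinted region around H19 and IGF2 stood higher in A-498 too. Of 10 tested, H19 included, 6 were called up and none down, where 5182 of 20144 genes were higher and 47.2% were called. Of those called, H19, IGF2, KCNQ1 and MRPL23-AS1 had to differ through the filter, so the count cannot be read against that share. The neighbouring antisense transcript MRPL23-AS1 differed by 3.69, and CDKN1C by 3.65. Around PVT1, 4 of 6 were higher in A-498, PVT1 included, among them the noncoding RNAs CCAT1 (6.62) and CASC8 (6.01), which were at no more than 0.0506 CPM in 786-O. Those called besides PVT1 were POU5F1B, CCAT1 and CASC8, which passed the filter only through A-498.

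The other 5 RNAs were not called between the lines. NEAT1 was at 192 CPM ± 50.9 in A-498 and 129 CPM ± 27.3 in 786-O (0.6, SE 0.236, adjusted p = 0.0776), with overlapping libraries, and passed the threshold without A-498 hairpin 1 (adjusted p = 0.032). TUG1 did not overlap between the lines, at 211 CPM ± 11 against 181 CPM ± 19 (0.23, SE 0.126, adjusted p = 0.179). GAS5 (163 CPM ± 26.7 in A-498, 169 CPM ± 33.4 in 786-O), NORAD (457 CPM ± 215 and 479 CPM ± 179) and MIAT (0.807 CPM ± 0.168 and 0.656 CPM ± 0.147) overlapped. For GAS5 the 95% interval of the log2 difference was -0.49 to 0.39. These means pool control and knockdown libraries, so the SD of NORAD holds the hairpin 3 change.

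Of the snoRNA hosts, 11 of 22 were called lower in A-498 and 2 higher, where 4319 of 20144 genes were called lower and 47.2% in either direction, with a median log2 difference of -0.58 against 0.02 over all genes. SNHG14, the long imprinted transcript of the Prader-Willi region, was at no more than 0.0301 CPM in A-498 and passed the filter only through 786-O, so its difference of -9.53 had to follow. SNHG5 differed by -4 (SE 0.255), while SNHG15 (1.06) and SNHG16 (0.87) were higher in A-498. Of the paraspeckle proteins 6 of 16 were called lower in A-498 and none higher, where 4319 of 20144 genes were called lower. Their median log2 difference was -0.254 against 0.02 over all genes. RBM3 (-1.3) and PSPC1 (-0.6) were among those called, while NEAT1 itself was not called.

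**Figure D5:**
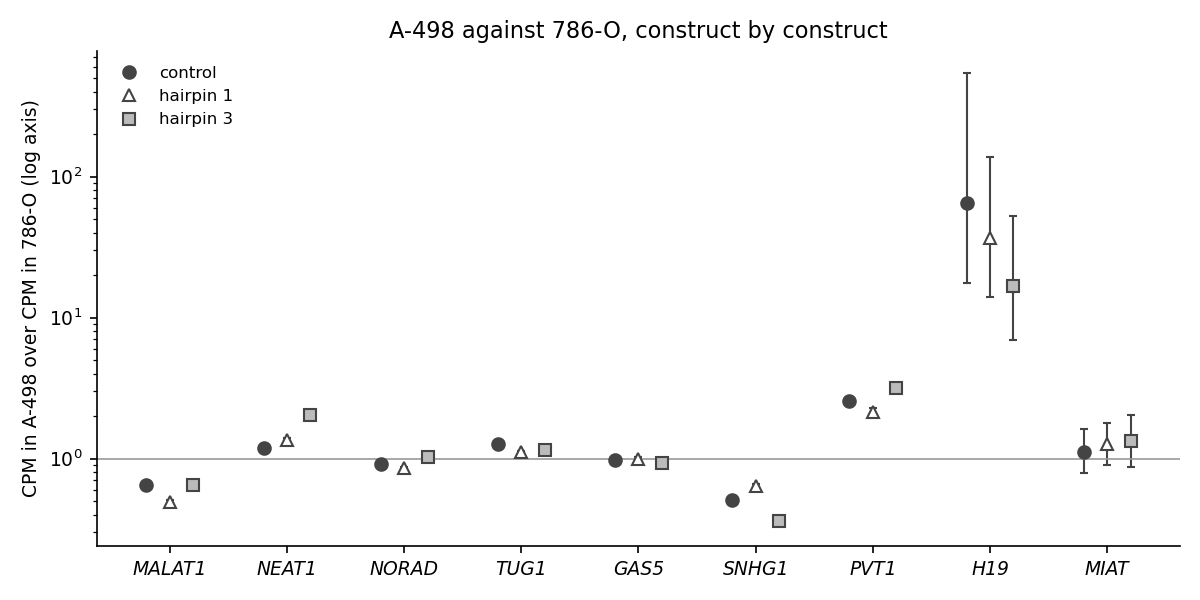
CPM in A-498 over CPM in 786-O (log axis) for each of the 9 RNAs, with 1 point per construct and 95% counting intervals as bars. MALAT1 and SNHG1 lie below 1 and PVT1 and H19 above 1 with all 3 constructs.

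Among 35 other long noncoding RNAs tested, 2 rose and 2 fell with hairpin 3, where 6.71% of all genes were called, and the median was 0.135 against -0.01 over all genes. HCP5, a noncoding RNA of the major histocompatibility region, rose by 1.3 on the log2 scale (SE 0.206, adjusted p = 0.0207), at 0.405, 0.587 and 0.839 CPM in 786-O and 6.78, 11 and 18.6 CPM in A-498. LINC00152, also called CYTOR, rose by 0.86 (SE 0.128, adjusted p = 0.0177), at 17.8, 20.2 and 32.8 CPM and at 24, 24.8 and 43.1 CPM. UCA1, an RNA first named in bladder cancer, fell by 1.87 (SE 0.243, adjusted p = 0.0145), from 19 CPM in the 786-O control and 23 with hairpin 1 to 5.12 with hairpin 3. In A-498 UCA1 was at no more than 0.0749 CPM, so its change was read in 786-O. CASC2 fell by 1.27 (SE 0.254, adjusted p = 0.035), at 2.95, 3.79 and 1.4 CPM and at 1.09, 1.06 and 0.388 CPM. All 4 calls were lost without the 786-O control, and those of HCP5, LINC00152 and CASC2 without the A-498 control, as for NORAD. HCP5 was also lost without A-498 hairpin 3, CASC2 without 786-O hairpin 1 and UCA1 without 786-O hairpin 3. Between the hairpins 2 of the 35 were higher and 3 lower with hairpin 3, where 9.48% of all genes were called. PCAT1, given above, and LINC00152 (log2 difference 0.75, adjusted p = 0.0216 by edgeR) were higher. UCA1 (-2.22, adjusted p = 0.00908), CASC2 (-1.44, adjusted p = 0.0232) and LINC00467 (-0.72, SE 0.163, adjusted p = 0.0416) were lower. LINC00467 was at 9.38, 12.4 and 7.26 CPM in 786-O and 6.73, 8.41 and 5.26 CPM in A-498. Its call was lost without either control or either hairpin 1 library. Those of LINC00152 and CASC2 were lost without either hairpin 1 library, and that of UCA1 without 786-O hairpin 1 or 786-O hairpin 3. With hairpin 1 none of the 35 was called.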

How the data were processed

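RNA was measured in 6 libraries of total RNA made with the TruSeq Stranded Total RNA kit, per the labels' protocols. The deposited counts are whole reads per gene symbol, not normalized by the authors. Per the file headers, the authors added for each gene a mean signal, a log2 fold change, a test score, and p-values plain and adjusted. STAR, DESeq2, hg19 and hs37d5 appear in the submitters' processing notes. No source used here gives the counter, the annotation or the use of strand. No value column was left unlisted (0).

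The test was edgeR 4.0.16 under R 4.3.3 (TMM scaling, filterByExpr over knockdown status, quasi-likelihood F test, Benjamini-Hochberg over all 20144 genes, call at an adjusted p under 0.05). Knockdown and line came from a model with line and status (3 residual degrees of freedom), hairpins from line and construct (2), in which the lines serve as replicates, and the difference between lines from 4 means (2). The script was tested on simulated data. DESeq2 1.42.0, limma 3.58.1 (voom), other scaling, no filter and leaving out each library were alternatives. Counting intervals are exact at 95% and cover counting error only. The SE of a fitted change is its absolute value divided by the square root of the F statistic. The 95% interval of a fitted change is built from that SE, so both are approximate, most of all at low counts. Coordinates, lengths, overlaps and transcript sequences are from GENCODE release 29 (GRCh38), not the authors' build; start windows are from RefSeq (8 members matched). Every member is named. Of the related lists, genes called with a hairpin are named, and genes named only for the line difference were chosen after their values were seen. Members and lists were chosen with earlier results of these data known.

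Hairpin numbers mark a shared reagent. Over 11027 genes the hairpin 3 minus hairpin 1 difference in A-498 followed that in 786-O (r 0.577, rho 0.556), so models for knockdown were refitted with that number as a block.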

Additional observations from a re-analysis of the deposited data

Results flagged for a closer look

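With the 2 hairpins NORAD, PVT1 and MIAT stood on opposite sides of the control of their line, in both lines. For MIAT every counting interval of the ratio to the control included 1. For NORAD the difference between hairpin 3 and hairpin 1 was 1.05 on the log2 scale (adjusted p = 0.0105 by edgeR). PVT1, at 0.61, and MIAT, at -0.62, did not pass (adjusted p = 0.0615 and 0.192). Hairpin 1 left ZNF395 at 24.7 CPM in 786-O and 14.5 in A-498 and hairpin 3 left 13.5 and 14.3 CPM, and the part of these levels in the differences was not tested.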

How the results depend on the processing

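The number of members called stayed at 0 for knockdown against control, for hairpin 1 and for the difference of the knockdown effect between lines under every alternative run, and at 4 or 5 between the lines. With hairpin number as a replicate block, 0 of the 9 were called for knockdown (26 of all genes were, against 0 without the block) and 0 for the difference between lines, and the block changed no call of a member. With hairpin 3 against control 2 members were called without the filter and with DESeq2, and 0 to 2 when 1 library was left out. Against hairpin 1, 2 were called without the filter, 3 with DESeq2 and 3 with limma-voom, and 0 to 3 when 1 library was left out. Where 1 control is left out, the lone control is assumed to vary like the other libraries. For all genes, hairpin 1 gave 30 calls with edgeR, 478 without the filter and 448 with DESeq2; hairpin 3 gave 1351, 2654 and 2599; hairpin 3 against hairpin 1 gave 1910, 3117 and 2956; knockdown gave 0 with edgeR, 1 with limma-voom and 85 with DESeq2. Of 504 values of single members under alternatives, 27 changed sign, 24 of them on leaving out 1 library, and none of these had been called. Some values of single genes changed sign when 1 library was left out, and the ranges of their log2 fold changes were as follows. For knockdown they were NEAT1 -0.51 to 0.06, H19 -0.14 to 1.15, MIAT -0.19 to 0.11, MALAT1 -0.16 to 0.04 and PVT1 -0.14 to 0.25. For hairpin 1 they were MALAT1 -0.16 to 0.25, GAS5 -0.04 to 0.02 and SNHG1 -0.12 to 0.44. For hairpin 3 they were NEAT1 -0.37 to 0.35, H19 -0.51 to 0.9 and KCNQ1 -2.78 to 1.58. For hairpin 3 against hairpin 1 they were MALAT1 -0.41 to 0, TUG1 0 to 0.12 and H19 -0.76 to 0.65. For the lines they were GAS5 -0.17 to 0.09 and NORAD -0.48 to 0.2. H19 stood at -0.02 for knockdown with the replicate block, and between the lines GAS5 stood at 0.04 and NORAD at 0.01 under library totals. KCNQ1, which was called, turned to 1.58 on the log2 scale with hairpin 3 without the A-498 control. The cause of these shifts was not tested. The alternatives for the snoRNA hosts and other related genes were chosen after seeing the data. Members under about 1 CPM (H19 in 786-O, MIAT) are limited by their few counts, and the others by the number of libraries.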
